A study of Mus musculus with 6 samples.

Results

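Monocytes leave the blood and enter inflamed tissue along gradients of CC chemokines, small secreted proteins read by G protein-coupled receptors on the leukocyte surface. In the mouse, CCL2, CCL7 and CCL12 act on CCR2, the receptor that marks classical monocytes, whereas CCL3, CCL6 and CCL9 act on CCR1. In endometriosis, endometrial tissue grows outside the uterus, and monocyte-derived macrophages are a regular part of such lesions. The 10 genes described here are the ligands Ccl2, Ccl7, Ccl8, Ccl12, Ccl3, Ccl4, Ccl6 and Ccl9 and the receptors Ccr2 and Ccr1, listed by name and found among the 56884 genes of the count table by their mouse symbols, and all 10 were found.

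Each of 6 ectopic lesions gave 1 RNA library, 3 of them WT and 3 Dnmt3a KO. The WT lesions grew from uterine tissue of Dnmt3a f/f females, which carry floxed Dnmt3a without Cre. The KO lesions grew from Dnmt3a f/f:PR-Cre/+ females, whose Cre recombinase is driven by the progesterone receptor locus and so acts in the cells that make this receptor. Donors in both groups were 8 weeks old and, by the methods of the study, treated with estradiol. Every recipient was a wild-type C57BL/6J female carrying an estrogen pellet. The sample labels give 4 weeks for the time, and injection of uterine fragments into the peritoneal cavity, whereas the methods give day 21 and a sutured fragment. Cre was present in KO donors only, so its presence and the loss of Dnmt3a cannot be told apart. Leukocytes that entered a lesion from the recipient carried intact Dnmt3a in both groups. Whole lesions were sequenced, so fewer cells of a type and less RNA per cell cannot be told apart either.

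The libraries held 45370342 to 57239184 counts. CPM below are counts scaled to the TMM-corrected library size. Dnmt3a itself lay at 43.9 to 52.7 CPM in WT and at 30.3 to 36.2 CPM in KO lesions, without overlap (log2 fold change -0.57 ± 0.14, SE, adjusted p = 0.321 in edgeR's quasi-likelihood test). The uterine epithelial markers summed to 1569 to 2363 CPM across WT and 1476 to 2932 CPM in KO lesions, with Cdh1 and Krt19 the most abundant, and Foxa2, a gland marker, had 0 counts in KO replicate 3. WT replicate 2 differed from the other WT lesions. Its 8 neutrophil markers summed to 9953 CPM, against 486 and 219.9 CPM in WT replicates 1 and 3. Its 10 skeletal muscle markers summed to 4.61 CPM, against 30461 and 32476 CPM in those lesions. In KO lesions the muscle markers summed to 14.7, 7.95 and 13.8 CPM, so here WT replicate 2 was like the KO lesions. By mean CPM over the WT lesions, Acta1 and Myh4 were the highest muscle markers. The 10 genes are therefore given with and without WT replicate 2. Without it, WT lesions with muscle RNA are set against KO lesions with little of it.

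Dnmt3a adds methyl groups to cytosine in CpG dinucleotides, so the CpG content of the promoters is shown before the values. RefSeq promoter sequences of GRCm38.p6 were matched for 7 of the 10 genes. The windows below hold the 250 bases before the start site, 5′ to 3′, with each CpG in capitals. They belong to the ligand with the largest difference (Ccl3), to a ligand whose groups did not overlap (Ccl12) and to both receptors.
Ccl3, chr11:83649379-83649628, minus strand: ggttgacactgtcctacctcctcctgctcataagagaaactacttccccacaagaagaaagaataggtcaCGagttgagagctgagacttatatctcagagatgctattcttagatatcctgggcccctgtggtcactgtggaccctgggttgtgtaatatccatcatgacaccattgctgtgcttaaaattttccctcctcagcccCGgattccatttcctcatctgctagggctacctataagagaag
Ccl12, chr11:82101595-82101844, plus strand: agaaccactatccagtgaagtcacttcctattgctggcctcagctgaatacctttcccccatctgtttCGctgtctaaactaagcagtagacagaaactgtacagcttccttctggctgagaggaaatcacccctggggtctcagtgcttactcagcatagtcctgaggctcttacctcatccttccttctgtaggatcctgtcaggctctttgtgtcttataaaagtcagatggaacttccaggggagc
Ccr1, chr9:123968693-123968942, minus strand: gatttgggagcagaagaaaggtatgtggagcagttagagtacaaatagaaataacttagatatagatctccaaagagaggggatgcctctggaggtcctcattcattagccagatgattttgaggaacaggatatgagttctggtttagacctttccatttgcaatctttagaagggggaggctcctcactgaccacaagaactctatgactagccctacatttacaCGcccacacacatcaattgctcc
Ccr2, chr9:124101933-124102182, plus strand: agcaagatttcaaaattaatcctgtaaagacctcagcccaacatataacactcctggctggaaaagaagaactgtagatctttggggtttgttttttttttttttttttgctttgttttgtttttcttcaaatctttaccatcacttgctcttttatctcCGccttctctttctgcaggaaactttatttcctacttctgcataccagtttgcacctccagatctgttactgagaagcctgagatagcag
Ccl3 held 2 CpG and the other 3 windows 1 each. Of all 32851 such windows, 29.0% held 2 or fewer CpG, and the median was 6, whereas all 7 matched windows held 1 or 2. Ccl12 and Ccl8 also carried the TATA motif TATAAA, beginning 31 and 32 bases before the start, and Ccl9 92 bases before it, a motif that 7.59% of all windows held on the gene strand. These are features of the reference sequence, and methylation was not measured in these libraries.

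All 10 genes had a lower mean in KO than in WT lesions, and 4 of them were past the threshold, namely the ligands Ccl3, Ccl4 and Ccl2 and the receptor Ccr1. The threshold was a log2 fold change below -1 together with p under 0.05 before adjustment in edgeR's quasi-likelihood test, and 5.85% of the 18177 genes tested were past it on the KO-lower side (8.16% by the p-value alone). A negative log2 fold change alone was found in 48.6% of all genes. In edgeR's test, DESeq2's Wald test and limma's voom 0 of the 10 were past the threshold on the KO-higher side, and 0 of the 10 were higher by the unadjusted p-value alone. In edgeR's test 3.1% of all genes were past it on that side. After Benjamini-Hochberg adjustment across the whole table, p-values of the 10 genes ran from 0.328 to 0.527 in edgeR's test, so that 0 of 10 stayed under 0.05, as against 4 before adjustment. DESeq2's Wald test and limma's voom also gave 0 adjusted, but the genes under 0.05 before adjustment were others in part. In DESeq2's test these 3 were Ccl2, Ccl12 and Ccr2, with no p-value for Ccl3, Ccl4 and Ccr1. In voom the 4 were Ccl8, Ccl12, Ccr2 and Ccl9. Ccl2, Ccl3, Ccl4 and Ccr1 had unadjusted p-values of 0.0578 to 0.113 in voom, and Ccl3 a log2 fold change of -2.72. Lower past the threshold were Ccl2 and Ccr2 in DESeq2's test and Ccl8, Ccr2 and Ccl9 in voom. Of the 18177 genes tested, 1351 were lower past it in DESeq2's test and 1523 in voom. Across all genes, 0.0055% had an adjusted p-value under 0.05 in edgeR's test and 3.32% were lower by more than 1 on the log2 scale at that adjusted level in DESeq2's.

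The calls changed when single lesions were left out. Without WT replicate 2, 0 of the 10 genes were past the threshold in edgeR's test and 0 had an unadjusted p-value under 0.05, where 5.86% of all genes were past it on the lower side, 2.1% on the higher side and 2.1% under an adjusted p-value of 0.05. DESeq2's Wald test without that lesion put 1 past the threshold, Ccl4, where 1188 of 18923 genes tested were past it on the lower side. In edgeR's fit without it the log2 fold change stayed negative for 9 of the 10 genes, against 45.7% of all genes. Leaving out KO replicate 1 or KO replicate 2 also gave 0 of 10. The log2 fold changes of the 4 genes then stayed between -5.27 and -1.81. Across all genes, those lower past it were then 551 of 19002 without KO replicate 1 and 658 of 18925 without KO replicate 2. With all lesions they were 1064 of 18177. Leaving out WT replicate 3 gave the same 4 genes, and leaving out WT replicate 1 added Ccr2. Across all genes, 1178 of 18875 and 1130 of 18873 were lower past it in these fits. Without KO replicate 3 the 5 genes past the threshold were Ccl3, Ccl8, Ccl12, Ccr2 and Ccl9. In that fit 1650 of 19048 genes tested were past it on the lower side.

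**Figure D1:**
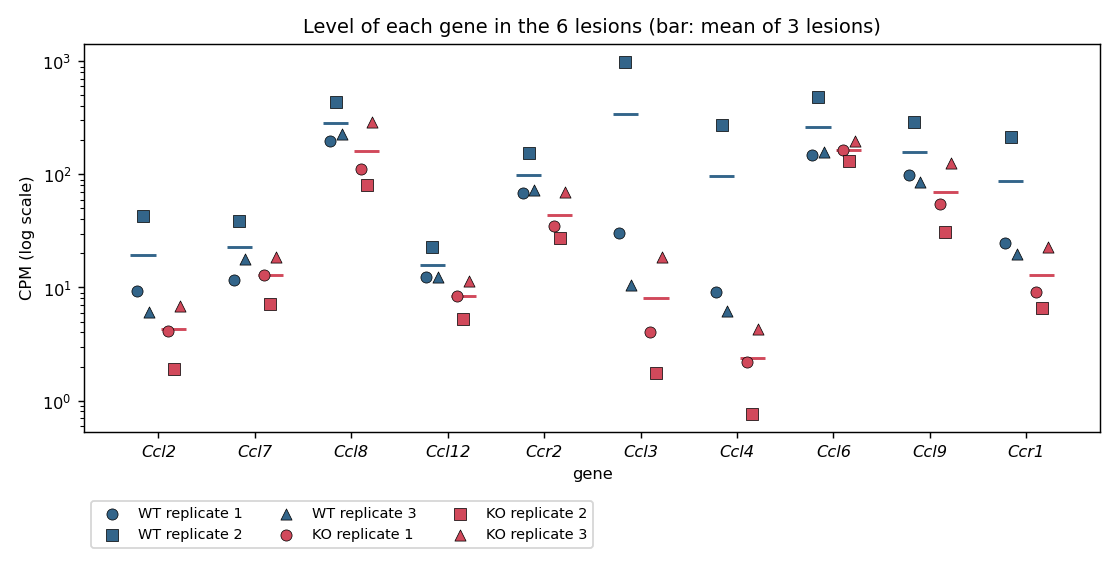
Level of each gene in CPM on a log axis, with 1 point per lesion, WT in blue and KO in red, and a bar at the mean of the 3 lesions. The point of WT replicate 2 is the highest and that of KO replicate 2 the lowest of the 6 for all 10 genes, and Ccl3 and Ccl4 show the widest span.

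The same lesions stood at both ends of the range in all 10 genes. WT replicate 2 was the highest and KO replicate 2 the lowest of the 6 lesions in 10 of 10, a pair of positions found in 9.94% of all genes tested. KO replicate 3 was the highest KO lesion in 10 of 10, against 37.7% of all genes, and exceeded both WT replicate 1 and WT replicate 3 in 4 of 10 (Ccl7, Ccl8, Ccl6 and Ccl9), close to the 37.3% of all genes. KO replicates 1 and 2 both lay below every WT lesion in 8 of 10, against 22.4% of all genes. The 10 genes share their libraries, so these counts are not independent of one another. Pearson correlations between pairs of the 10 genes over the 6 lesions ran from 0.77 to 0.99 with a median of 0.94, and without WT replicate 2 from 0.39 to 0.98 with a median of 0.91, given as a description of genes measured in the same libraries.

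Among the ligands of CCR2, Ccl2 (ENSMUSG00000035385.6), also called MCP-1, is the main signal that draws classical monocytes. In the order of the replicate numbers, used throughout, Ccl2 measured 9.31, 42.6 and 6.07 CPM across WT and 4.10, 1.91 and 6.92 CPM across KO lesions. The groups overlapped, since KO replicate 3 lay above WT replicate 3. The log2 fold change was -2.16 ± 0.87 (SE, unadjusted p = 0.0480, adjusted p = 0.337, edgeR's quasi-likelihood test), and without WT replicate 2 it was -0.83 ± 0.57 (SE, unadjusted p = 0.200). The study chose Ccl2 for its part in drawing immunosuppressive cells and reported it as significantly reduced in KO lesions. The paper gives no separate assay for it, so its direction here is not treated as independent evidence.

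Ccl12 (ENSMUSG00000035352.4), or MCP-5, a further CCR2 ligand of the mouse, had the smallest standard error of the genes grouped with CCR2. It measured 12.3, 22.8 and 12.3 CPM in WT and 8.49, 5.24 and 11.4 CPM across KO lesions. Every KO lesion lay below every WT lesion, as for 8.74% of all genes (p = 0.1 in a two-sided exact permutation test, the lowest value possible with 3 lesions a side). Its log2 fold change was -0.92 ± 0.38 (SE, unadjusted p = 0.0543 in edgeR's test), and -0.56 ± 0.35 (SE) without WT replicate 2.

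Ccl7 (ENSMUSG00000035373.3), or MCP-3, which acts on CCR2 and also on other CC receptors, was closer between the groups. It measured 11.8, 38.7 and 18.0 CPM in WT and 12.8, 7.13 and 18.6 CPM across KO lesions. Only WT replicate 2 lay above the KO range, and the log2 fold change of -0.83 ± 0.54 (SE, unadjusted p = 0.174 in edgeR's test) was -0.21 without that lesion (standard error 0.44).

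Ccl8 (ENSMUSG00000009185.3), or MCP-2, known in mice to act on CCR8, had 196.8, 434.2 and 229.2 CPM across WT and 110.6, 79.9 and 292.6 CPM across KO lesions. KO replicate 3 exceeded WT replicates 1 and 3, while the other KO lesions lay below every WT lesion. Its log2 fold change was -0.83 ± 0.57 (SE, unadjusted p = 0.194, edgeR), -0.40 without WT replicate 2 and -1.59 without KO replicate 3. Ccr8 itself was below the filter on low counts, with at most 0.608 CPM in any lesion.

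Ccr2 (ENSMUSG00000049103.15), the receptor that lets monocytes leave the bone marrow, measured 67.8, 153.8 and 72.7 CPM in WT and 34.8, 27.4 and 69.6 CPM across KO lesions. KO replicate 3 lay above WT replicate 1 and below WT replicate 3, so the groups overlapped by 1 lesion. Ccr2 had a fitted difference of -1.16 ± 0.48 (SE) on the log2 scale and missed the threshold (unadjusted p = 0.0516, adjusted p = 0.341, edgeR). Leaving out WT replicate 2 gave -0.68 ± 0.41 (SE, unadjusted p = 0.162), whereas Ccr2 passed without WT replicate 1 (-1.36) and without KO replicate 3 (-1.66). With all lesions it also passed in DESeq2's Wald test (-1.17, unadjusted p = 0.0256), in limma's voom (-1.13, unadjusted p = 0.00686) and in edgeR's test without the filter on low counts (-1.15, unadjusted p = 0.0395).

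Among the genes grouped with CCR1, Ccl3 (ENSMUSG00000000982.6) and Ccl4 (ENSMUSG00000018930.4), the macrophage inflammatory proteins 1-alpha and 1-beta, showed the largest differences of the 10 genes. Ccl3 measured 30.3, 995.0 and 10.6 CPM in WT and 4.03, 1.75 and 18.6 CPM across KO lesions. WT replicate 2 alone held 93.9% of the Ccl3 level summed over the 6 lesions, and KO replicate 3 lay above WT replicate 3. For Ccl3 the log2 fold change was -5.41 ± 2.05 (SE, unadjusted p = 0.0388, adjusted p = 0.332, edgeR). Leaving out WT replicate 2 gave -1.33 ± 1.05 (SE, unadjusted p = 0.260).

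Ccl4 measured 9.14, 274.3 and 6.24 CPM in WT and 2.18, 0.755 and 4.25 CPM across KO lesions. Here too WT replicate 2 held 92.4% of the sum over the 6 lesions. In contrast to Ccl3, every KO lesion lay below every WT lesion (exact two-sided permutation test over the 6 lesions, p = 0.1), also without WT replicate 2, as for 17.8% of all genes in that fit. The log2 fold change was -5.33 ± 1.78 (SE, unadjusted p = 0.0239, adjusted p = 0.328, edgeR). Without WT replicate 2 it was -1.68 ± 0.71 (SE, unadjusted p = 0.0619 in edgeR's test), the largest of the 10 in that fit.

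Ccl6 (ENSMUSG00000018927.4) and Ccl9 (ENSMUSG00000019122.9) encode ligands of CCR1 found in rodents and made largely by myeloid cells. Ccl6 measured 147.7, 483.5 and 156.5 CPM in WT and 163.8, 132.0 and 198.7 CPM across KO lesions. KO replicates 1 and 3 both lay above WT replicates 1 and 3. Its log2 fold change of -0.67 ± 0.51 (SE, unadjusted p = 0.233, edgeR) turned to 0.12 without WT replicate 2 (standard error 0.20), and Ccl6 was the only one of the 10 genes whose direction turned with that lesion left out. Ccl9 measured 99.2, 292.3 and 85.6 CPM in WT and 54.5, 30.7 and 125.3 CPM across KO lesions. KO replicate 3 lay above 2 of the WT lesions, and the log2 fold change was -1.18 ± 0.69 (SE, unadjusted p = 0.138, edgeR) with all lesions and -0.40 ± 0.59 (SE) without WT replicate 2.

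Ccr1 (ENSMUSG00000025804.6), the receptor of Ccl3, Ccl6 and Ccl9 on monocytes, macrophages and neutrophils, measured 24.6, 216.3 and 19.6 CPM in WT and 9.19, 6.63 and 22.9 CPM across KO lesions. WT replicate 2 held 72.3% of the sum over the 6 lesions, and KO replicate 3 lay between WT replicates 1 and 3. The log2 fold change was -2.75 ± 1.10 (SE, unadjusted p = 0.0458, adjusted p = 0.334, edgeR), and without WT replicate 2 it was -0.78 ± 0.55 (SE, unadjusted p = 0.217).

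**Figure D2:**
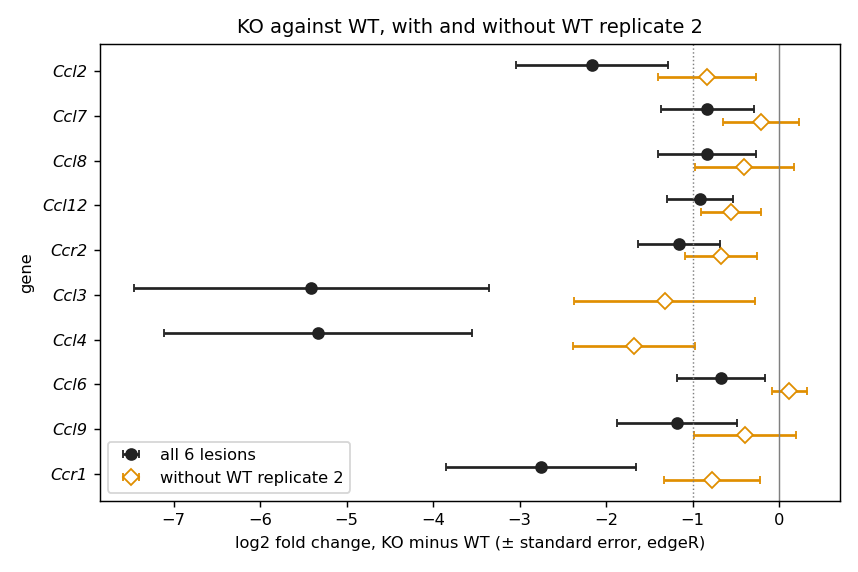
Log2 fold change, KO minus WT, of each gene with its standard error from edgeR's fit, for all 6 lesions (filled circles) and without WT replicate 2 (open diamonds); the dotted line marks -1. Ccl3, Ccl4, Ccr1 and Ccl2 shift the most towards 0, to -1.33, -1.68, -0.78 and -0.83, and Ccl6 crosses to 0.12.

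Levels of different genes were compared as CPM per kb of exon, with lengths from GENCODE M21. Among the 8 ligands, Ccl8 was the most abundant in 5 of 6 lesions, with 58.6% to 71.1% of the summed level. In WT replicate 2 Ccl3 came first with 42.5%, ahead of Ccl8 with 27.8% and Ccl4 with 13.6%. In the other lesions Ccl3 held 0.865% to 6.59% and Ccl4 0.434% to 2.31%. Ccl6 was the second ligand in each of those lesions and held 24.7% and 27.9% in KO replicates 1 and 2, against 13.7% in WT replicate 1, WT replicate 3 and KO replicate 3. Ccl2 held 0.635% to 1.37% in every lesion.

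The level summed over the 8 ligands was 599.2, 3058 and 638.0 CPM per kb in WT and 369.5, 263.8 and 805.8 CPM per kb in KO lesions. The groups overlapped, with KO replicate 3 second of the 6. The receptors also changed places. Ccr2 exceeded Ccr1 in 5 of 6 lesions, for example with 10.03 against 8.67 CPM per kb in WT replicate 1 and 4.06 against 2.34 CPM per kb in KO replicate 2. In WT replicate 2 Ccr1 stood at 76.3 and Ccr2 at 22.7 CPM per kb.

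**Figure D3:**
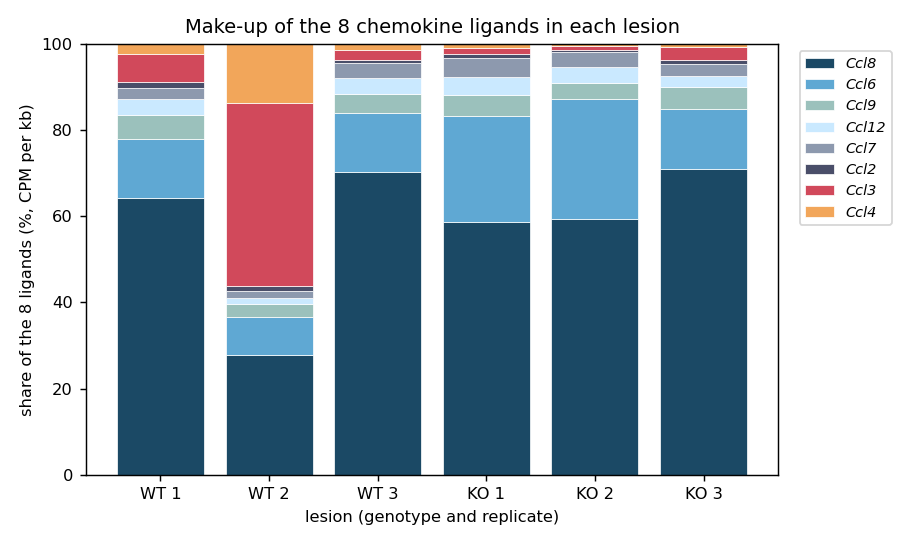
Share of each ligand in the level summed over the 8 ligands, in percent of CPM per kb, with 1 bar per lesion. Ccl8 (dark blue, at the base) makes up 58.6% to 71.1% outside WT replicate 2, where Ccl3 (red) makes up 42.5%.

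The rest of the CC chemokine system was read from lists of 12 further ligands and 12 further receptors, of which 11 and 10 passed the filter on low counts. Of these 21 genes, 8 were past the threshold on the KO-lower side, where 5.85% of all genes were, with adjusted p-values of 0.321 to 0.335 in edgeR's test. On the KO-higher side 0 were past it in edgeR's test, with 0 at an unadjusted p-value under 0.05. There was 1 in DESeq2's Wald test (Ccl11) and 2 in limma's voom. The median log2 fold change was -0.60 for the ligands and -1.71 for the receptors, beside 0.01 for all genes tested. The lower ligands were Ccl5, Ccl17 and Ccl22, and the lower receptors were Ccr4, Ccr6, Ccr7, Ccr9 and Ackr2. Ccl17 and Ccl22, both ligands of CCR4, were in the same set of chemokines that the study reported as reduced. When WT replicate 2 was left out, 4 of the 8 were past the threshold (Ccl5, Ccl17, Ccl22 and Ccr9), with medians of -0.48 for the ligands and -0.89 for the receptors beside 0.04 for all genes.

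Ccl5, or RANTES, a ligand of CCR1 made largely by T cells, had a lower unadjusted p-value than any of the 10 genes. It measured 8.52, 15.4 and 8.80 CPM in WT and 2.88, 1.07 and 3.75 CPM across KO lesions. No KO lesion reached the WT range, and WT replicates 1 and 3 were alike. The log2 fold change was -2.09 ± 0.52 (SE, unadjusted p = 0.00699, adjusted p = 0.321, edgeR), and -1.75 ± 0.53 (SE) without WT replicate 2 (unadjusted p = 0.0210).

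Ccr4, a receptor of Th2 and regulatory T cells, had 1.02, 3.47 and 0.641 CPM across WT and 0.211, 0 and 0.333 CPM across KO lesions, where 0 counts allow up to 0.0596 CPM. Its log2 fold change was -3.22 ± 1.22 (SE), and -2.18 ± 1.17 (SE) without WT replicate 2. Ackr2, a scavenging receptor that takes up inflammatory CC chemokines without signalling, had 4.95, 7.61 and 4.29 CPM across WT and 1.58, 1.013 and 3.58 CPM across KO lesions, and the groups did not overlap. Its log2 fold change of -1.45 ± 0.53 (SE) was -1.17 without WT replicate 2 and then missed the threshold (unadjusted p = 0.0976 in edgeR's test). The ligands of CCR4 were low in all lesions, with 3.63 to 14.0 CPM of Ccl22 in WT and 0.755 to 2.17 CPM in KO lesions, and with 0.495 to 1.24 CPM of Ccl17 in WT and 0.0795 to 0.351 CPM in KO lesions. Their log2 fold changes were -2.22 ± 0.66 (SE) for Ccl22 and -2.04 ± 0.68 (SE) for Ccl17, and -1.48 and -2.28 without WT replicate 2. Ccr7, which guides lymphocytes and dendritic cells to lymph nodes, differed by -1.96 ± 0.78 (SE) on that scale, and by -0.75 ± 0.48 (SE, unadjusted p = 0.173, edgeR) without WT replicate 2. Ccr6, the receptor of Ccl20, differed by -3.16 ± 1.13 (SE), and by -1.66 ± 0.88 (SE, unadjusted p = 0.114, edgeR) without that lesion. For Ccr9, known from homing to the gut, the values were -1.97 ± 0.54 (SE) and -1.39 ± 0.44 (SE).

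Behind the receptors, 17 of 18 listed genes of chemokine receptor signalling in leukocytes had a negative log2 fold change, with a median of -1.07, but 1 was past the threshold. This was Pik3r5, the regulatory subunit of phosphoinositide 3-kinase gamma, with 37.7, 86.4 and 57.4 CPM in WT and 17.8, 10.97 and 28.2 CPM across KO lesions. It was also past the threshold without WT replicate 2, with a log2 fold change of -1.32 (unadjusted p = 0.0259 in edgeR's test), where the median of the list was -0.44. Of 11 factors of monocyte supply and survival, 9 were negative with a median of -0.69, and 1 was past the threshold, Il34, a ligand of the macrophage growth factor receptor. For Il34 the log2 fold change was -1.05 ± 0.39 (SE), and it was -0.78 without WT replicate 2 and no longer past the threshold.

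**Figure D4:**
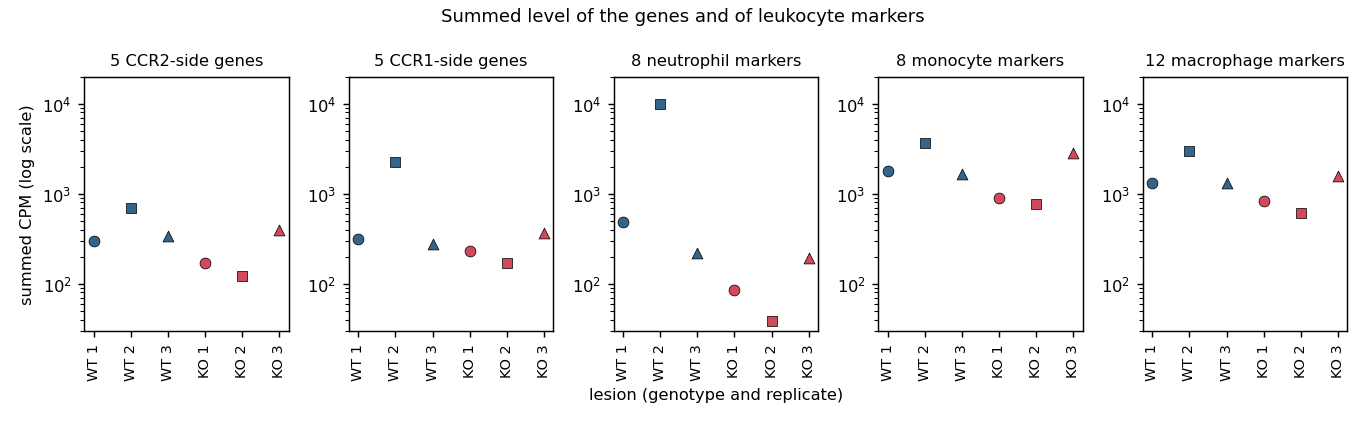
Summed CPM on a log axis, with 1 point per lesion, WT in blue and KO in red. The first panel holds the 5 genes grouped with CCR2 (Ccl2, Ccl7, Ccl8, Ccl12, Ccr2). Ccl8, known in mice to act on CCR8, is the largest part of their sum in every lesion. The others hold the 5 grouped with CCR1 (Ccl3, Ccl4, Ccl6, Ccl9, Ccr1) and 3 lists of leukocyte markers. In all 5 panels WT replicate 2 is the highest and KO replicate 2 the lowest, and the neutrophil markers span the widest range, from 38.4 to 9953 CPM.

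Markers of neutrophils, classical monocytes and tissue macrophages mostly had negative log2 fold changes, as the 10 genes had. The 8 neutrophil markers summed to 219.9 to 9953 CPM in WT and 38.4 to 190.9 CPM in KO lesions, with 8 of 8 negative, 4 past the threshold and a median log2 fold change of -3.69. With WT replicate 2 left out, their median came to -1.02, and Retnlg (0.72, unadjusted p = 0.0628 in edgeR's test) and Mmp8 (0.75) turned positive. Among the other 6 the lowest unadjusted p-value was then 0.0729, for S100a9. The most abundant of them were S100a9 and S100a8, the subunits of calprotectin. S100a9 had 240.1, 5263 and 98.4 CPM across WT and 16.1, 2.38 and 57.8 CPM across KO lesions. No neutrophil marker was at 0 in any lesion.

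The 8 markers of classical monocytes summed to 1676 to 3625 CPM in WT and 777.7 to 2808 CPM in KO lesions. All 8 were negative with a median of -0.89, 3 were past the threshold, and none was at 0 in any lesion. With WT replicate 2 left out the median was -0.51, 1 was past the threshold, Chil3 moved from -0.03 to 0.56 and Fn1 from -0.49 to -0.03. The most abundant were Fn1, which encodes fibronectin and is also made by stroma, and Plac8. Fn1 had 1167, 2134 and 838.4 CPM across WT and 465.1, 427.5 and 2047 CPM across KO lesions. Ly6c2, the surface antigen by which mouse classical monocytes are recognised, had 12.9, 73.8 and 15.9 CPM across WT and 8.12, 3.56 and 7.48 CPM across KO lesions, and was named after its values were seen. Every KO lesion lay below every WT lesion, and the log2 fold change was -2.42 (unadjusted p = 0.0210, edgeR) and -1.17 without WT replicate 2 (unadjusted p = 0.0289).

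The 12 markers of tissue macrophages summed to 1312 to 3020 CPM in WT and 607.0 to 1568 CPM in KO lesions. Of these 11 were negative with a median of -0.96 (-0.46 without WT replicate 2), and the lowest unadjusted p-value was 0.0653 in edgeR's test. When WT replicate 2 was left out, Mertk, the positive marker, went from 0.24 to 0.54 (unadjusted p = 0.0475, edgeR) and Cd68 turned from -0.27 to 0.33. None was at 0. By mean CPM, not scaled by length, the highest were C1qb, a complement subunit, and Csf1r, the receptor for colony-stimulating factor 1. Csf1r had 213.6, 594.5 and 196.2 CPM across WT and 117.3, 93.0 and 263.7 CPM across KO lesions. As in 4 of the 10 chemokine and receptor genes, KO replicate 3 lay above WT replicates 1 and 3 in the sum of the macrophage markers. The part of these cell types in the differences of the 10 genes was not tested.

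Of the other lists, 5 of 6 T cell markers and 4 of 5 B cell markers were past the threshold on the KO-lower side, with medians of -1.85 and -3.47, against 1 and 2 with medians of -1.14 and -1.80 without WT replicate 2. Of the 5 mast cell markers 4 were tested, with a median of -0.07 (0.27 without WT replicate 2) and 1 lower, Mcpt4. The 5 endothelial markers had a median of -0.46, with unadjusted p-values of 0.251 or more in edgeR's test. All 7 tested skeletal muscle markers were lower (median -11.07), and all 10 without WT replicate 2. Smooth muscle markers had a median of 0.86 with 2 of 6 higher and 1 negative. The negative one was Des, at -2.16, and at -2.70 without WT replicate 2 (unadjusted p = 0.00126 in edgeR's test). Uterine stroma had a median of 0.51 with 3 of 8 higher (1 without WT replicate 2) and 3 negative (Pdgfra, Vim and Col1a1). Uterine epithelium had a median of 0.46 with unadjusted p-values of 0.0596 or more in edgeR's test.

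The ligand genes lie in 2 groups on chromosome 11 and both receptors on chromosome 9, with Ccr1l1 and Ccr3 between them. In the RefSeq order, Ccl2, Ccl7, Ccl11, Ccl12 and Ccl8 follow each other, and so do Ccl5, Ccl9, Ccl6, Ccl3 and Ccl4. Within these runs 2 neighbours had a higher mean in KO lesions. Ccl11, or eotaxin, which draws eosinophils through CCR3, sits between Ccl7 and Ccl12 and measured 20.8, 40.8 and 72.3 CPM in WT and 156.5, 77.2 and 78.0 CPM across KO lesions. Every KO lesion lay above every WT lesion, as for 10.7% of all genes, and the log2 fold change of 1.22 ± 0.52 (SE) missed the threshold (unadjusted p = 0.0565 in edgeR's test). Ccr3, its receptor, measured 0.769, 2.79 and 3.40 CPM in WT and 6.19, 3.89 and 4.42 CPM across KO lesions. Ccr3 differed by 1.06 ± 0.56 on the log2 scale (SE, unadjusted p = 0.108, edgeR), again with no overlap between the groups. Without WT replicate 2 the values were 1.16 for Ccl11 and 1.22 for Ccr3.

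**Figure D5:**
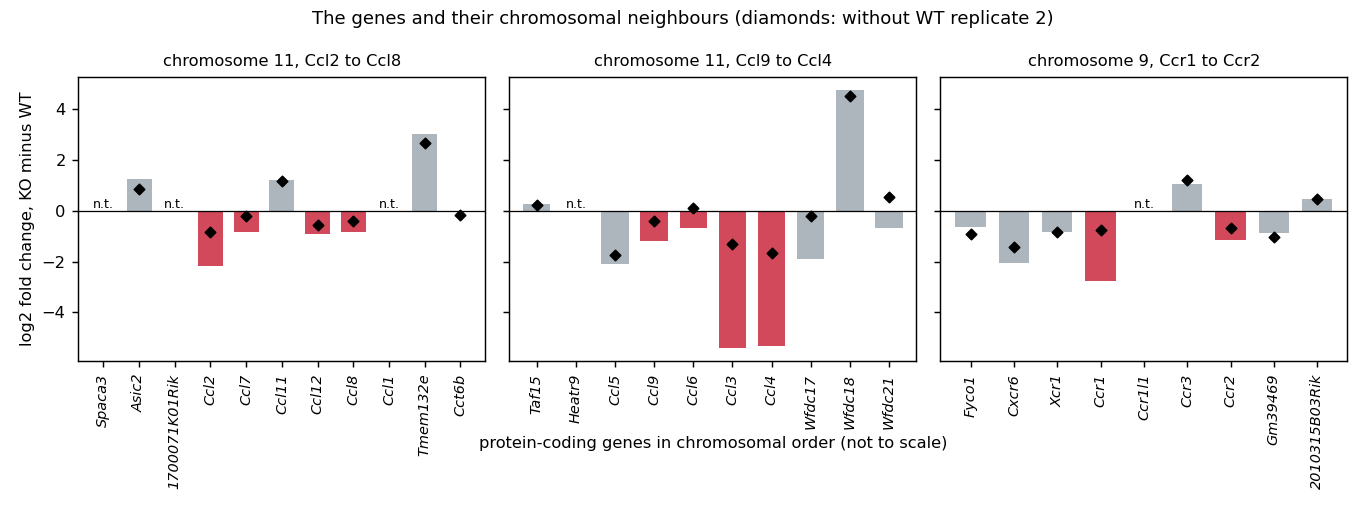
Log2 fold change, KO minus WT, of the genes described here (red bars) and of neighbouring protein-coding genes (grey bars) in chromosomal order, not to scale, with the values without WT replicate 2 as diamonds; n.t. marks genes below the filter on low counts. Within the runs of negative bars, Ccl11 (1.22) and Ccr3 (1.06) point the other way.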

How the data were processed

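Total RNA of 6 whole lesions was sequenced from Illumina TruSeq Stranded mRNA libraries. The authors deposited raw counts per gene, not normalized. GEO's processing notes list Trimmomatic, featureCounts, DESeq2 and GRCm39, whereas the paper names GRCm38 and Galaxy. The aligner is not given in the sources used here. Symbols came from GENCODE M21, in which 51948 of 56884 identifiers were found without their version, the remainder holding 3.04% to 3.56% of counts. No coordinates were taken for the counted genes. Promoter coordinates are those of RefSeq GRCm38.p6.

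Counts were analysed in R 4.3.3 with edgeR 4.0.16 (filterByExpr, TMM, quasi-likelihood test of genotype, Benjamini-Hochberg adjustment). Standard errors were derived from the F statistic, as the absolute log2 fold change over its square root. Log2 CPM used a prior count of 2. Alternatives used DESeq2 1.42.0, limma 3.58.1 (voom), other scalings and filters, a replicate block and each lesion left out. A robust prior was added after the data were seen. The steps were tested on simulated data.

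The 10 genes and the lists (further CC ligands and receptors, receptor signalling, monocyte factors, and markers of monocytes, macrophages, neutrophils, T, B and mast cells, skeletal and smooth muscle, uterine epithelium and stroma, and endothelium) were chosen with earlier results of these data known. Named genes are the 10, Ccl5, listed CC genes past the threshold, up to 4 such genes of each signalling list, the most abundant markers, Dnmt3a, and the 5 genes most alike, and 1 gene under this rule is not reported here. Ly6c2, Foxa2, Retnlg, Mmp8, Chil3, Mertk, Cd68, Mcpt4, Ccr8, Ccl11, Ccr3 and chromosomal neighbours were named after their values were seen. The same holds for Ccl28, Des, Pdgfra, Vim and Col1a1. The methods give 3 donors a group, but the labels tie no library to a donor, so p-values measure the spread between these lesions, which may be in part technical. Counts carry no molecular identifiers, so a limit from 0 counts covers counting error only.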

Additional observations from a re-analysis of the deposited data

How the results depend on the processing

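Over the 16 alternatives, 0 of the 10 genes had an adjusted p-value under 0.05 (edgeR, DESeq2 and limma's voom; lowest 0.0792, for Ccr2 with voom), and 0 were higher past the threshold. All 10 log2 fold changes stayed negative except that of Ccl6, which was 0.12 without WT replicate 2 (-0.96 to 0.12 with single lesions left out) and 0.11 with DESeq2 without WT replicate 2. The median over all genes tested was 0.11 with upper quartile scaling, against 0.01 as reported, and with every scaling all 10 genes were negative. The count of genes called lower among the 10, 4 as reported, was 2 with total counts only, 2 with DESeq2, which gave 3 genes no p-value, 1 with DESeq2 without WT replicate 2, and 0 to 5 with single lesions left out. Of the 24 further CC genes listed, 21 were tested as reported and more without the filter. Among those tested, 8 lower became 13 without the filter and 5 with at least 10 counts in every library. They became 4 with DESeq2 without WT replicate 2 and 4 to 11 with single lesions left out. Higher ones among them were 1 with upper quartile scaling, total counts only, no filter or DESeq2, 2 with voom, and 0 to 1 with single lesions left out. Across all genes, 1064 lower became 1652 without the filter and 551 to 1650 with single lesions left out, and 564 higher became 855 with voom and 280 to 1021 with single lesions left out. With the replicate number as a block, 0 of the 10, 3 further CC genes, 573 lower and 372 higher genes were past the threshold (lowest unadjusted p of the 10 genes 0.0975, edgeR). Deviations of same-numbered lesions correlated at 0.03, -0.15 and -0.20, against -0.15 to 0.23 for lesions of different number. This gave no sign of pairing by number, but with 3 lesions a group it cannot exclude it. A robust prior in edgeR, added after the data were seen, gave 3 of the 10. Upper quartile scaling gave 907 lower and 716 higher genes. The causes of these shifts were not tested. The fit without WT replicate 2 rests on 2 WT and 3 KO lesions.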

Other observations

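Among 12038 genes with a mean of at least 5 CPM, those whose log2 CPM followed 4 of the genes most closely over the 6 lesions were read off by Pearson correlation, as a description over libraries that all the genes share. For Ccr1 they were Fmnl1, Nlrp3, Emilin2, Il1r2 and Cd37 (r of 0.998 to 0.999), where Nlrp3 encodes an inflammasome sensor and Il1r2 the decoy receptor for interleukin-1. For Ccl3 they were Irf5, Ppard, Gadd45b, Csf3r and Fpr1 (0.998 to 0.999), where Csf3r and Fpr1 encode receptors for granulocyte colony-stimulating factor and for formylated bacterial peptides. The list for Ccl2 was Coro1a, Arhgdib, Mark4, Myo9b and Ncf1 (0.997 to 0.999), and Ncf1 encodes a subunit of the phagocyte oxidase. For Ccr2 the genes were Ifi207, Rgs10, Slfn5, Gda and Slc16a10 (0.997 to 0.999). Without WT replicate 2 the same correlations were 0.989 or higher.

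Next to the ligand group on chromosome 11, the WAP-domain gene Wfdc17 had a mean of 198.4 CPM in WT and 52.4 CPM in KO lesions (log2 fold change -1.92, unadjusted p = 0.0880 in edgeR's test), and -0.21 without WT replicate 2. Its neighbour Wfdc18 lay the other way, with 2.99 and 80.2 CPM (log2 fold change 4.74, unadjusted p = 0.0277, adjusted p = 0.328), and 4.51 without WT replicate 2. On chromosome 9, Cxcr6, a receptor of activated T cells separated from Ccr1 by Xcr1, had 13.6 and 3.30 CPM (log2 fold change -2.05, unadjusted p = 0.0399, edgeR), and -1.45 without WT replicate 2.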
